A study of Rattus norvegicus with 9 samples.

Results

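The NR4A orphan nuclear receptors are 3 related transcription factors, Nr4a1 (Nur77, gene 79240 in the files), Nr4a2 (Nurr1, gene 54278) and Nr4a3 (NOR-1, gene 58853). They were found by gene symbol among the 18006 genes with an expression value in RBL-2H3, a cell line from a rat basophilic leukemia that serves as a mast cell (MC) model, and each had a value in all 9 samples. The samples formed 3 groups of 3. In the DNP group, cells carried anti-DNP IgE (50 ng/mL, 12 h) when the antigen DNP-HSA was added (100 ng/mL, 4 h). PF cells received the same sensitization and antigen, with a 1 h pretreatment with PF in between, an agent that neither the labels nor the paper's text identifies. For these samples 1 label field gives 4 h of stimulation throughout, and another gives 4 h for PF replicate 1, 5 h for PF replicate 2 and 6 h for PF replicate 3. The Ctrl samples are called untreated in 1 label field, while the protocol field that all samples share describes sensitization and stimulation, so whether they received IgE is not settled. The cells share 1 line, and no label says whether replicates came from separate cultures, so p-values measure only the spread between these samples.

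NR4A proteins bind DNA through zinc fingers like other nuclear receptors, but the pocket that holds a hormone in related receptors is filled by the protein's own side chains. Their activity is therefore set largely by how much of each protein is made. The genes are immediate early genes, switched on rapidly by calcium, cAMP and MAP kinase signals, and antigen receptors of lymphocytes are a well known trigger. The proteins bind a short element, the NBRE (AAAGGTCA), as monomers, and Nr4a1 and Nr4a2, but not Nr4a3, can also pair with retinoid X receptors.

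The deposited values have no unit and were read as FPKM, a measure that corrects reads for transcript length and library depth. Levels of different genes are set side by side on that reading. Sums over all genes ran from 573023 to 591539 FPKM in Ctrl and DNP samples and from 610206 to 630069 FPKM in PF samples. The number of reads is unknown. The labels give blood as the tissue of origin. Of 13 mast cell markers, 11 had a value, and these 11 were at 1 FPKM or more in the mean of each group, with sums between 5391 and 5784 FPKM per sample. The largest part of these sums was Srgn, with means of 2780 FPKM in Ctrl, 2843 in DNP and 2914 in PF. The 5 T cell markers summed to between 6.96 and 10.3 FPKM, nearly all of it Cd3e, and 6 fibroblast and epithelial markers to at most 0.24 FPKM.

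The RefSeq table of promoters (build GRCr8) had entries for 2 of the 3 genes, Nr4a1 and Nr4a2. RefSeq lists 4 transcripts for Nr4a1, 7 for Nr4a2 and 4 for Nr4a3, and each entry covers 1 start site. The 250 bases before that start are shown because both genes rose after antigen, and capitals mark the half-site of the cAMP response element (CRE) in either orientation (TGACG or CGTCA). The Nr4a1 window is chr7:134259888-134260137 on the plus strand, and the Nr4a2 window is chr3:62104888-62105137 on the minus strand, read 5′ to 3′.
Nr4a1: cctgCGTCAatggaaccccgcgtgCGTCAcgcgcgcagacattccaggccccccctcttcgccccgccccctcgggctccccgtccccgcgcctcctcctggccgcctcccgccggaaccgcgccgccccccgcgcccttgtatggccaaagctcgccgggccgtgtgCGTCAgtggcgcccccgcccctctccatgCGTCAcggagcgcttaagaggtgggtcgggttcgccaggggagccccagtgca
Nr4a2: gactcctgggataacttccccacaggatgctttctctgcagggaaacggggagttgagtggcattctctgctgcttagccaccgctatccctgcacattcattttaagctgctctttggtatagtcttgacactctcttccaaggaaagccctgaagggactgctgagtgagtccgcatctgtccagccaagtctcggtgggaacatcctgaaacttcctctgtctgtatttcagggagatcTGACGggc

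The Nr4a1 window held 4 CRE half-sites and the Nr4a2 window held 1. A half-site was present in 18.2% of the 33469 promoter windows of the same length, and 4 or more in 0.173%. G and C made up 74.8% of the Nr4a1 window and 52.0% of the Nr4a2 window, against a median of 51.2% over all windows. The half-site contains CG, and the shares given here were not matched for base content. Each of the 4 in Nr4a1 lay within the longer run TGCGTCA, which was added to the search after the window had been read. That run occurred at least once in 1.66% of windows and at least 4 times in 1 of them, that of Nr4a1. Its copies began 248, 228, 84 and 55 bases before the start. The window of Nr4a2 had its half-site 8 bases before the start and 2 matches to the core sequence bound by NFAT factors (GGAAA), which 56.9% of windows held. Neither window had a full CRE (TGACGTCA, in 1.59% of windows), an AP-1 site (TGANTCA, 6.34%), an NBRE (1.24%), an EGR site (GCGTGGGCG, 0.478%), a MEF2 site (2.96%) or a CArG box (1.5%). Both strands were searched, and the half-site matches include those inside the longer runs. Such matches describe letters in the window and not binding.

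In Ctrl samples Nr4a2 was the most abundant of the 3 and Nr4a3 was close to absent. Nr4a2, known for its role in dopamine neurons, had values of 5.70, 6.62 and 5.85 FPKM in Ctrl replicates 1, 2 and 3. Nr4a1, the best studied member in lymphocytes and macrophages, was at 0.39, 0.70 and 0.38 FPKM. Nr4a3, described in muscle and immune cells, was at 0.16, 0.12 and 0.22 FPKM. The order Nr4a2, Nr4a1, Nr4a3 held in each Ctrl sample, and no value of 1 gene overlapped the values of the next. Nr4a2 exceeded 58.04% of the 18006 genes by its Ctrl mean, against 38.3% for Nr4a1 and 31.6% for Nr4a3.

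**Figure D1:**
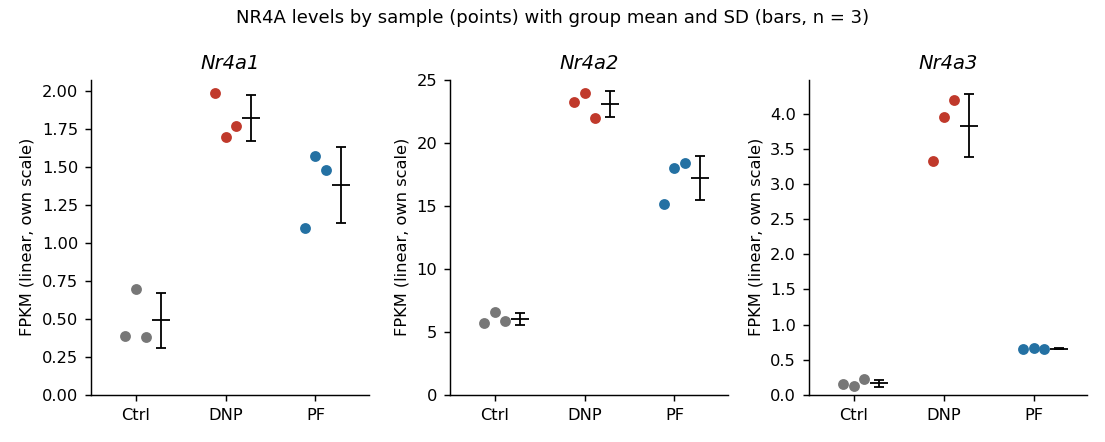
FPKM of Nr4a1, Nr4a2 and Nr4a3 in each sample of the Ctrl, DNP and PF groups (points; linear axes, a separate scale per gene), with the group mean and SD (n = 3) beside them. DNP points lie above Ctrl points for each gene, and PF points lie between the other groups for each gene, close to Ctrl for Nr4a3 at 0.65 to 0.67 FPKM.

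The first comparison, DNP vs Ctrl, addressed the response of MCs to antigen. Nr4a3 reached 3.33, 3.95 and 4.20 FPKM in DNP replicates 1, 2 and 3. Each was far above the Ctrl samples, and the mean went from 0.167 ± 0.0503 up to 3.83 ± 0.448 FPKM (SD of 3 replicates), a ratio of 23.0. Because Nr4a3 started near 0, the ratio rests on small Ctrl values and ranged from 20.1 to 27.3 when any 1 sample was dropped. On the scale of the test, log2(FPKM + 1), which understates changes of low genes, the gain was 2.05 ± 0.102 (SE; adjusted p of 8.25e-06 in limma), the 5th highest among 10392 genes tested. With a pseudocount of 0.01 and no filter on low values, a setting chosen after seeing the data, it was 4.47.

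Nr4a2 reached 23.3, 24.0 and 22.0 FPKM in DNP replicates 1, 2 and 3. They lay within a narrow band, and the lowest of them was above the highest Ctrl sample. The mean went from 6.06 ± 0.494 up to 23.1 ± 1.02 FPKM (SD of 3 replicates), a ratio of 3.82, and dropping any 1 sample kept it between 3.71 and 4.00. The log2 fold change was 1.77 ± 0.0651 (SE; adjusted p of 1.55e-06 in limma), the 8th highest of those tested. In absolute terms this was the largest gain of the family, 17.1 FPKM, against 3.66 FPKM for Nr4a3 and 1.33 FPKM for Nr4a1.

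Nr4a1 reached 1.99, 1.70 and 1.77 FPKM in DNP replicates 1, 2 and 3. The groups did not overlap, although Ctrl replicate 2 stood above the other Ctrl samples. The mean went from 0.490 ± 0.182 up to 1.82 ± 0.151 FPKM (SD of 3 replicates), a ratio of 3.71, and the ratio was 4.73 without Ctrl replicate 2. The log2 fold change was 0.93 ± 0.114 (SE; adjusted p of 9.29e-04 in limma), and 1.93 with the pseudocount of 0.01. The 3 members were thus called higher in DNP, where 14.7% of all tested genes were called in that direction. Nr4a1 and Nr4a3 reached the filter of 1 FPKM in 3 samples only through the DNP samples, so their passing it already required a difference. No DNP sample of any of the 3 genes lay below a Ctrl sample (p = 0.1 for each gene by an exact permutation test, two-sided, and 3 samples against 3 allow none smaller), as was the case for 22.4% of tested genes. RNA from whole cultures cannot tell a higher level in each cell from a larger share of responding cells.

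The second comparison, PF vs DNP, set stimulated cells with and without the pretreatment side by side. Nr4a3 was at 0.66, 0.67 and 0.65 FPKM in the PF samples, a spread smaller than that of any other group of values in the family. Each PF sample was below every DNP sample, and the mean fell from 3.83 ± 0.448 to 0.660 ± 0.01 FPKM (SD, n = 3 each), so that the DNP level was 5.80 times the PF level (5.52 to 6.17 when any 1 sample was dropped). The log2 fold change was -1.54 ± 0.0943 (SE; adjusted p of 3.72e-06 in limma), the 48th lowest of 10329 genes tested.

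Nr4a2 was at 15.2, 18.1 and 18.4 FPKM in the PF samples. These were below each DNP sample but nearer to them than to Ctrl. The mean was 17.2 ± 1.76 FPKM (SD, n = 3), 0.745 of the DNP mean, and the log2 fold change was -0.41 ± 0.0724 (SE; adjusted p of 0.00165 in limma). Nr4a2 was called lower, as were 30.7% of tested genes. Nr4a3 was called lower too, but it passed the filter only through the DNP samples, where it was high, so its passing already required a difference. Calls in this comparison depended on scaling as a whole: 37.1% of all called genes were higher in PF as deposited, 51.5% with median-ratio scaling and 16.8% with each sample scaled to the mean sum. The last scaling moved the median of all tested genes to -0.13, from -0.04, and in PF vs Ctrl to -0.12, from -0.05. Nr4a3 had a log2 fold change between -1.59 and -1.50 and Nr4a2 between -0.50 and -0.35 under these scalings, and both remained called.

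Nr4a1 was at 1.10, 1.57 and 1.48 FPKM in the PF samples. They did not overlap the DNP samples, but PF replicate 1 stood apart from the other two. The mean was 1.38 ± 0.249 FPKM (SD, n = 3). On the log2 scale the change was -0.25 ± 0.105 (SE), its 95% confidence interval ran from -0.48 to -0.01 and its adjusted p in limma was 0.0799, above the threshold of 0.05. It passed when samples were scaled to the mean sum (limma adjusted p = 0.0348), and without PF replicate 1 the change was -0.16 with an adjusted p of 0.246. The 3 genes gave the smallest exact permutation p of 0.1 here too, and 35.4% of tested genes were lower in PF with no overlap. PF replicate 1, the sample given 4 h in both label fields, had the lowest Nr4a1 and Nr4a2 of the PF samples and a middle value of Nr4a3, and a part of stimulation time in these differences was not tested.

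In PF vs Ctrl, Nr4a2 and Nr4a1 were still above their Ctrl levels. This comparison shares its samples with the other two, so its values are given beside theirs and not as separate evidence. Nr4a2 had 2.84 times its Ctrl mean in PF, with a log2 fold change of 1.37 ± 0.0854 (SE; adjusted p of 5.39e-06 in limma). For Nr4a1 the ratio was 2.82 and the log2 fold change 0.68 ± 0.126 (SE; adjusted p of 0.00187 in limma). Nr4a2 was called higher, as were 23.1% of 10361 tested genes. Nr4a1 was also called higher, but no Ctrl sample reached 1 FPKM, so it entered this test only through the PF samples. Nr4a3 stayed under the filter, since no sample of either group reached 1 FPKM. Its 3 PF samples were nevertheless above the 3 Ctrl samples, with a ratio of 3.96 (p = 0.1 by the exact permutation test, again the smallest possible), as were 26.6% of tested genes. With no filter the gain was 0.51 ± 0.0425 (SE; adjusted p of 2.86e-04 in limma).

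PF and DNP means can be read on a common scale by asking how much of the antigen-associated rise in FPKM was present in PF samples. This share was 67.2% for Nr4a1 (60.2% to 77.8% when any 1 sample was dropped) and 65.5% for Nr4a2 (62.0% to 71.4%). For Nr4a3 it was 13.5% (12.6% to 14.2%). The DNP and Ctrl samples enter each share, so these are descriptions of the group means.

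Whether the members responded to different degrees was tested on the difference between 2 genes within each sample. It was taken on the log2(FPKM + 1) scale, so it is not the log2 ratio of the FPKM values. Between DNP and PF, Nr4a2 minus Nr4a3 moved from 2.32 ± 0.171 to 3.45 ± 0.145 (SD, n = 3 each), a difference of 1.13 (SE 0.129). Nr4a1 minus Nr4a3 moved from -0.77 ± 0.207 to 0.52 ± 0.154, a difference of 1.29 (SE 0.149). Nr4a1 and Nr4a2 differed from each other by 0.16 (SE 0.0635), and by 0.02 (SE 0.110) with a pseudocount of 0.01, where the gaps to Nr4a3 were 2.10 for Nr4a1 and 2.08 for Nr4a2. Each of these 3 differences separated the groups fully on the log2(FPKM + 1) scale (p = 0.1 for each by the same exact permutation test, adjusted p = 0.1125 over 9 such tests), and no smaller p was possible.

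The same test in DNP vs Ctrl placed Nr4a1 below Nr4a2 by 0.85 (SE 0.0736), below Nr4a3 by 1.12 (SE 0.176), and Nr4a2 below Nr4a3 by 0.27 (SE 0.131) on the log2(FPKM + 1) scale (p = 0.1 for each by the same exact permutation test). The gap between Nr4a1 and Nr4a2 depended on the pseudocount, which weighs more on the low values of Nr4a1. With 0.01 it was -0.01 (SE 0.232), since the FPKM ratios of the 2 genes were nearly equal. The gap of both to Nr4a3 widened to -2.55 and -2.54.

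**Figure D2:**
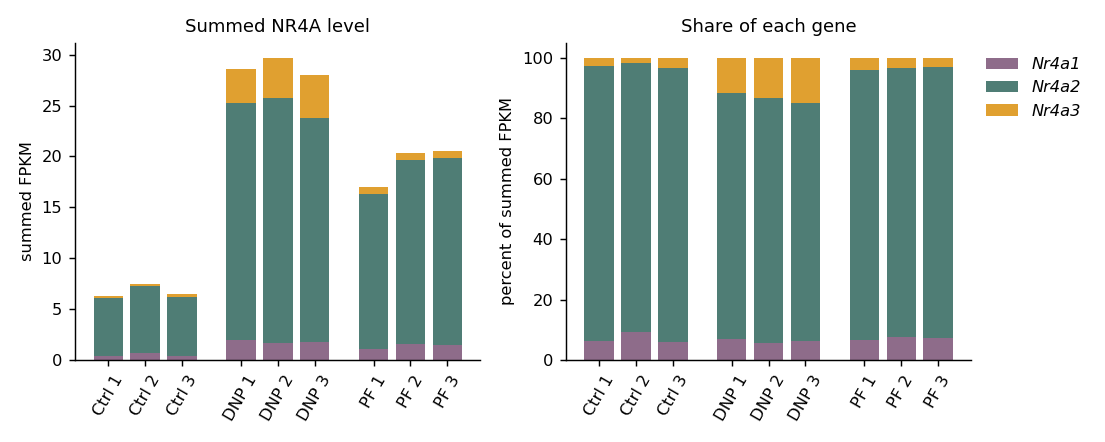
Left, FPKM of the 3 genes stacked for each of the 9 samples; right, each gene as a percent of their sum in that sample. Nr4a3 (top segment) takes 11.6% to 15.0% of the sum in DNP samples and at most 3.89% in Ctrl and PF samples, while Nr4a2 is the largest segment throughout.

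As a family, the 3 genes summed to 6.71 ± 0.637 FPKM in Ctrl, 28.8 ± 0.862 in DNP and 19.3 ± 2.00 in PF samples (SD, n = 3 each). Nr4a2 made up 90.3 ± 1.16% of the sum in Ctrl, 80.3 ± 1.46% in DNP and 89.4 ± 0.377% in PF. The share of Nr4a3 was 2.53 ± 0.899%, 13.3 ± 1.68% and 3.45 ± 0.386% in the same order. That of Nr4a1 stayed between 5.73% and 9.41% in the 9 samples. Nr4a3 exceeded Nr4a1 in each DNP sample, by 1.67 to 2.37 times, and Nr4a1 exceeded Nr4a3 in each Ctrl and PF sample. The makeup of the family by mRNA in PF samples was thus close to that of Ctrl samples at 2.87 times the summed level.

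Of the 48 genes of the nuclear receptor superfamily, 39 had a value and 23 reached a mean of 1 FPKM over the 9 samples. Nr3c1, the glucocorticoid receptor, was the most abundant at 54.9 FPKM, followed by Nr1d1, a repressor of the circadian clock, at 33.7 FPKM and Nr1h2, an oxysterol receptor, at 29.8 FPKM. Nr4a2 was 13th of the 39 by its Ctrl mean and 4th by its DNP and by its PF mean. Nr4a3 moved from 26th in Ctrl to 16th in DNP and back to 23rd in PF, and Nr4a1 held places 23, 21 and 20.

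The 3 NR4A genes had the highest log2 fold changes of the 23 superfamily genes tested in DNP vs Ctrl. Nr4a1 and Nr4a3 were among the 23 only through their DNP samples, so their entry already required a difference. Of the other 20, 1 was called higher, Nr2f1 (COUP-TFI) with 0.47, and 7 were called lower, beside 14.4% of the tested genes overall. Their range was -0.48 to 0.47 and their median -0.13, beside -0.01 for all tested genes. With no filter on low values, 36 other superfamily genes had the same range. In PF vs DNP, 12 of the other 20 were called lower and 2 higher (over all genes 30.7% were lower and 18.1% higher), with a median of -0.33 beside -0.04 for all genes. Nr4a3 with -1.54 was the lowest of the superfamily there, next to the clock repressors Nr1d2 with -1.24 and Nr1d1 with -0.97. Here too Nr4a3 was tested only through its DNP samples. The retinoic acid receptor gene Rarg had -0.75 and the fatty acid receptor gene Ppard had -0.69. In PF vs Ctrl, Nr4a2 was the highest of those tested, while Nr1d2 had -1.72, Nr1d1 -1.34, Ppard -1.01 and Rara -0.98, and 13 of the other 20 were called lower, beside 34.6% of all tested genes. With samples scaled to the mean sum, 15 of 19 were called lower in PF vs DNP, where the same scaling called 4302 of all 10320 genes lower.

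**Figure D3:**
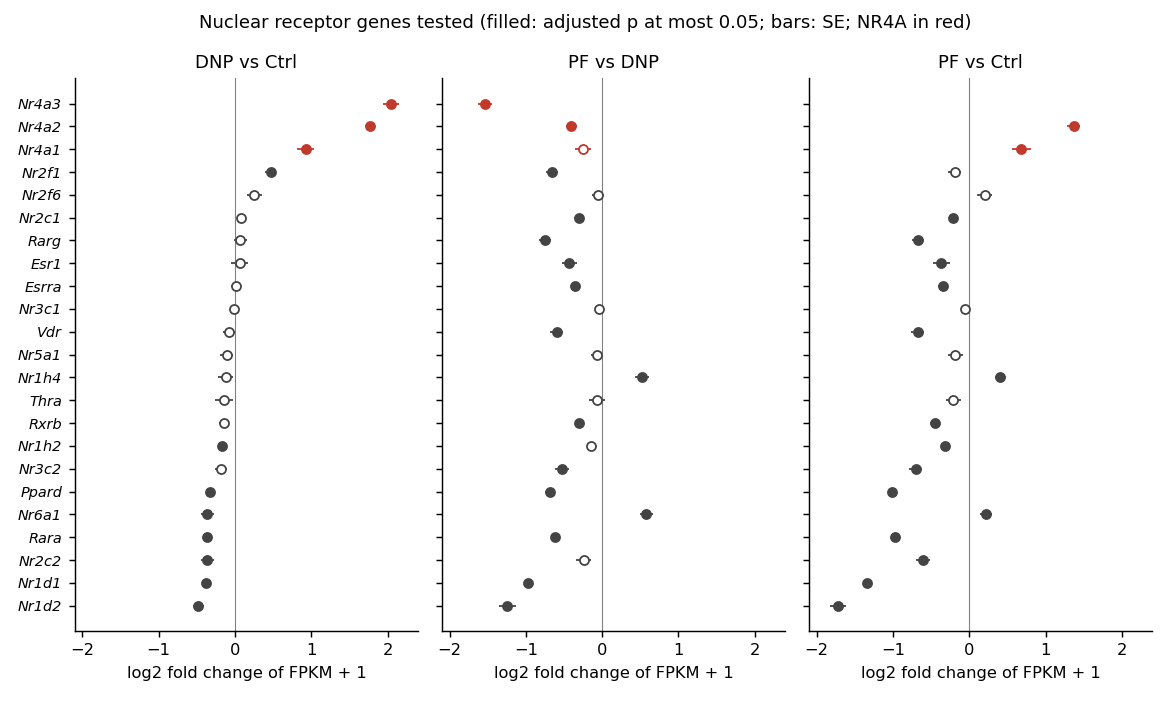
Log2 fold change on the log2(FPKM + 1) scale with its standard error for each nuclear receptor gene tested in DNP vs Ctrl, PF vs DNP and PF vs Ctrl (filled points, limma adjusted p of at most 0.05; NR4A genes in red; Nr4a3 was not tested in PF vs Ctrl). NR4A genes head the first panel, which Nr4a1 and Nr4a3 entered only through their DNP samples. In the middle panel Nr4a3 at -1.54, also tested only through its DNP samples, lies far left of Nr4a1 and Nr4a2.

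Retinoid X receptors are the partners of Nr4a1 and Nr4a2. Rxrb was at 17.0, 15.3 and 12.2 FPKM in the means of Ctrl, DNP and PF, so that it exceeded Nr4a2 in Ctrl and was below it in DNP and PF. Rxra was close to 0, at 0.0667, 0.150 and 0.150 FPKM. Rxrb had a log2 fold change of -0.14 in DNP vs Ctrl (limma adjusted p = 0.131) and fell in PF vs DNP by 0.31 on the log2 scale (limma adjusted p = 0.00110). Of 15 partners and coregulators tested, 2 were called higher and 1 lower in DNP vs Ctrl (3 of 15, beside 29.2% of the whole table tested). In PF vs DNP, 2 were called higher and 6 lower (53.3%, beside 48.8%). Bcl2, the survival protein that Nr4a1 can bind, had a log2 fold change of -0.66, and the coactivator gene Ncoa2 had -0.54.

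Regulators known to act on NR4A transcription include CREB and its coactivators, MEF2 factors with the class IIa histone deacetylases that restrain them, and NFAT factors. Of 20 such genes tested in DNP vs Ctrl, 3 were called higher and 5 lower (40.0%, beside 29.2% over all genes), and the median of the 20 was -0.02. In PF vs DNP none was called higher and 10 were called lower (50.0%, close to the 48.8% called in either direction over all genes, where 30.7% were lower), with a median of -0.21. Creb1, at 12.9, 18.5 and 10.9 FPKM in Ctrl, DNP and PF, rose by 0.49 in DNP vs Ctrl and fell by 0.71 in PF vs DNP on the log2 scale. The others called higher in DNP vs Ctrl were Hdac7 with 0.30 and Srf with 0.27. Those called lower there were Hdac5 with -0.41, Nfatc1 with -0.32, Mef2d with -0.28, Ep300 with -0.16 and Crtc2 with -0.15. Nfatc1 had -0.87 in PF vs DNP, followed by Hdac5 with -0.59, Hdac4 with -0.57 and Crebbp with -0.55. In PF vs Ctrl, 2 were called higher and 11 lower (65.0%, beside 57.7% of all tested genes), with Nfatc1 at -1.19, Hdac5 at -0.995 and Mef2d at -0.62.

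Of 20 genes reported elsewhere as NR4A targets, 15 had a value and 8 were tested. In DNP vs Ctrl, 1 was called higher, Spp1 (osteopontin) with a log2 fold change of 0.38, and 2 were called lower (37.5%, beside 29.2% over all genes). Star, a cholesterol carrier of steroid synthesis, had -0.61 (adjusted p of 0.0182 in limma, and 0.0522 to 0.0577 without Ctrl replicate 1, Ctrl replicate 2, DNP replicate 1 or DNP replicate 3), and the receptor kinase gene Ret had -0.38. Slc18a2, the vesicular amine transporter and a known target of Nr4a2 in neurons, was at 122 ± 3.64 FPKM in Ctrl, 126 ± 2.199 in DNP and 127 ± 5.37 in PF (SD, n = 3 each), and DNP vs Ctrl gave 0.04 (adjusted p of 0.459 in limma). In PF vs DNP, none was called higher and 2 were called lower (25.0%, below the 48.8% over all genes). In PF vs Ctrl, 1 was called higher and 3 lower (50.0%, below the 57.7% over all genes), among them Ret with -0.63 and the enolase gene Eno3 with -0.57. Most of these targets were described in neurons, muscle, liver and adrenal cells.

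The genes whose pattern over the 9 samples was most like that of each member differed between the members. Likeness was the distance between log2(FPKM + 1) values after each gene was centred on its own mean, among 10503 other genes. Nearest to Nr4a3 were Il3, Il4, Ccl2, Il13 and Emp1, with distances of 0.312, 0.461, 0.639, 0.835 and 0.876 and Pearson r between 0.970 and 0.995 over the 9 samples. The first 4 encode secreted products of MCs, 3 interleukins and a chemokine. Il3 was at 4.18 FPKM in Ctrl, 20.1 in DNP and 7.33 in PF, and Il4 at 2.33, 12.3 and 3.49 FPKM, so that in both the PF mean was nearer to Ctrl than to DNP.

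Nearest to Nr4a2 were Atf3 and Egr2, both transcription factor genes, and Lif, a cytokine gene, with distances of 0.474, 0.478 and 0.522. Atf3 was at 17.9 FPKM in Ctrl, 58.3 in DNP and 37.7 in PF. Ankrd40 and Dnaaf2 followed at 0.848 and 0.982. Unlike Nr4a2, both had PF means above their DNP means, 7.86 against 7.16 FPKM for Ankrd40 and 31.8 against 24.4 FPKM for Dnaaf2. Nearest to Nr4a1 were Serpinb1a, Cdca7, Ppbp, Pofut1 and Tent5a, with distances between 0.364 and 0.457. Serpinb1a, a serine protease inhibitor, was at 276 FPKM in Ctrl, 535 in DNP and 468 in PF. Among the candidates for Nr4a3, Nr4a2 was 21st and Nr4a1 52nd (r of 0.807). Among the candidates for Nr4a2, Nr4a1 was 11th (r of 0.980) and Nr4a3 74th (r of 0.823). Among those for Nr4a1, Nr4a2 was 2230th by distance and Nr4a3 9255th. The r of 0.980 between Nr4a1 and Nr4a2 was nevertheless above that of the 5 genes nearest to Nr4a1 (0.928 to 0.959). Distance includes the size of a change, which the log2(FPKM + 1) scale understates for low genes such as Nr4a1. These are correlations over samples that fall into 3 groups, and they describe how alike the group means were, which need not extend to each pair of groups.

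**Figure D4:**
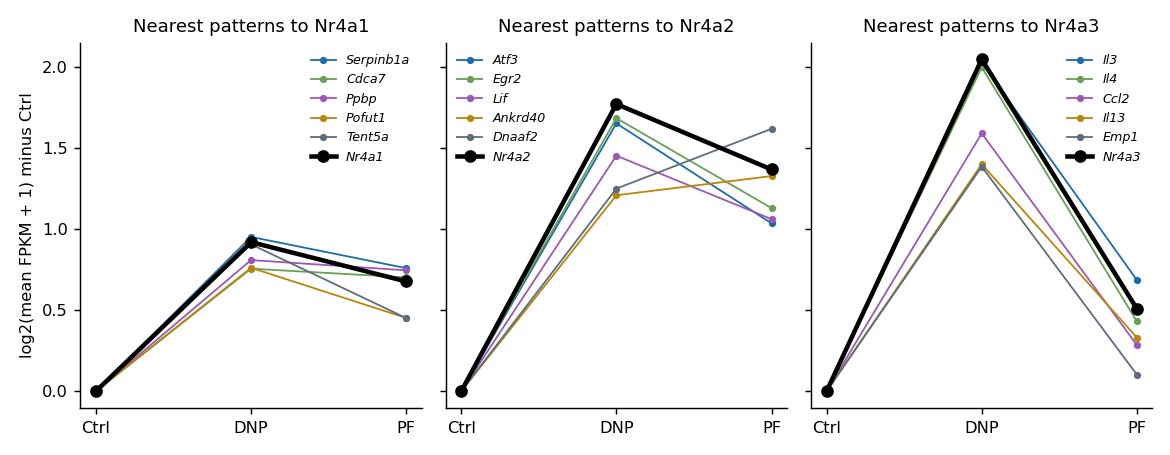
Log2(mean FPKM + 1) of each group minus that of Ctrl for Nr4a1, Nr4a2 and Nr4a3 (thick black lines) and the 5 genes nearest to each in pattern (thin lines; lines only join the groups). The Nr4a3 panel returns towards 0 in PF together with Il3, Il4, Ccl2, Il13 and Emp1, and the Nr4a2 panel stays above 1 in PF.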

How the data were processed

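RNA-seq values of 9 samples were used. By the study's methods and the submitters' processing notes, the authors filtered reads with SOAPnuke, mapped them to rn6 with HISAT2 (2.0.4) and quantified genes with Bowtie2 (2.2.5) and RSEM (1.2.12). The authors deposited 1 value per gene and sample under a heading without a unit, read here as FPKM because the values have decimals and sum to different totals. Of 38490 genes listed, 18006 had a value. Read depth is unknown, so precision rests on 3 replicates.

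A gene was tested if 3 or more of the 6 samples compared reached 1 FPKM. Tests used limma (3.58.1, R 4.3.3, eBayes with trend) on log2(FPKM + 1), p-values were adjusted after Benjamini and Hochberg, and 0.05 was the threshold. Members also had an exact permutation test. The script was tested on simulated data. Alternatives changed the pseudocount, filter, scaling, samples, trend, blocking or threshold. The members, lists and tests were chosen with earlier results of these data known. Named were the members, per list and comparison up to 5 called genes that moved by 0.5 or more on the log2 scale without overlap, Rxra, Rxrb and Nr1d1, the 3 most abundant nuclear receptor genes, and the 5 nearest to each member in pattern. Nr2f1, Spp1, Slc18a2, Cd3e and Srgn were named after their values were seen. So were, in DNP vs Ctrl, Ret, Creb1 and the other called regulators of NR4A transcription. Markers of B cells and macrophages summed to at most 1.15 and 2.07 FPKM. Promoters came from RefSeq (GRCr8).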

Additional observations from a re-analysis of the deposited data

How the results depend on the processing

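Each of the 3 genes in DNP vs Ctrl, Nr4a2 and Nr4a3 in PF vs DNP, and Nr4a1 and Nr4a2 in PF vs Ctrl kept its direction and its side of the threshold under the 14 alternatives run for it. Nr4a1 in PF vs DNP passed with samples scaled to the mean sum, with a log2 fold change of -0.31, and with limma without trend, at -0.25 (limma adjusted p = 0.0496), and over all its alternatives the adjusted p ran from 0.0348 to 0.246. With each sample left out it was between -0.30 and -0.16. Nr4a3 in PF vs Ctrl moved from 0.51 to 1.53 with a pseudocount of 0.1 and to 1.96 with 0.01 and no filter. The replicate block and limma without trend were not run for it, since it was under the filter.

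With the replicate block, 2697 genes were called in DNP vs Ctrl, 4675 in PF vs DNP and 6009 in PF vs Ctrl, and no call of a member changed. Each gene's group mean was subtracted before same-numbered samples were correlated over genes. The correlations of these deviations lay between -0.08 and 0.19, so the numbers were not taken to pair samples. At a threshold of 0.01, 1469 genes were called in DNP vs Ctrl, against 3031 at 0.05, a stricter cut by construction.

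Differences between members in PF vs Ctrl reversed with smaller pseudocounts: Nr4a1 minus Nr4a2 from -0.69 to 0.016 with 0.01, Nr4a1 minus Nr4a3 from 0.17 to -0.17 with 0.1 and -0.44 with 0.01, and Nr4a2 minus Nr4a3 from 0.86 to -0.0376 and -0.46. The pseudocount weighs most on Nr4a3, which was under 1 FPKM in both groups. Genes near 0 change also turned. Nr3c1 in DNP vs Ctrl gave 0.00535 with scaling to the mean sum and between -0.0536 and 0.0217 with any 1 sample dropped, and with median-ratio scaling it gave 0.0161 in PF vs DNP and 0.00676 in PF vs Ctrl. Cdca7 and Ppbp gave 0.00369 and 0.000322 in PF vs DNP with that scaling. Star was not called in DNP vs Ctrl with no filter (limma adjusted p = 0.0589). Levels below 0.5 FPKM, as for Nr4a3 in Ctrl, limit the precision of ratios most.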
